A study of Mus musculus with 7 samples.

Results

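The MHC class II genes were followed through the cell types of mouse brain tumours. They were taken by gene symbol, which gave 10 genes of the 32285 in the deposited matrices: H2-Aa, H2-Ab1, H2-Eb1, Cd74, Ciita, H2-DMa, H2-DMb1, H2-DMb2, H2-Oa and H2-Ob. The tumours had been grown from NSCG-mCherry, an EGFRvIII+ mouse glioma line with loss of Arf/Ink4a, in wild-type C57BL/6 mice of 7 to 10 weeks, and whole tumours were profiled by droplet single-cell RNA sequencing in 7 libraries at about day 14. All hosts carried the same tumour line and no other genetic change is given. UT was an untreated library (n = 1). IgG was the IgG2b isotype control at 10 mg/kg every 3 days from day 6 or 7 (n = 2). BP paired 5 mg/kg of the VEGF-blocking antibody B20 with 10 mg/kg of anti-PD-L1, both injected every 3 days from day 6 or 7 (n = 2). BPI was BP with the PI3K inhibitor IPI-145 at 10 mg/kg by daily gavage (n = 1), and the IgG, BP and BPI groups had 3 rounds of treatment. Which IgG library got the gavage diluent given to controls of BPI is not stated. CD40 was an agonist antibody against CD40 at 100 µg per dose, 5 days apart, in 2 doses (n = 1), and the labels do not state whether a dendritic cell vaccine went with it. Each library pooled at least 2 mice and counts as 1 replicate, so p-values measure the spread between libraries and not between mice.

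MHC class II molecules present peptides from endocytosed proteins to CD4+ T cells. H2-Aa and H2-Ab1 encode the alpha and beta chains of I-A, and H2-Eb1 encodes the beta chain of I-E, whose alpha chain gene is defective in C57BL/6 mice, so that the strain shows no I-E at the surface. Cd74, the invariant chain, guards the groove until it is degraded in the endosome, H2-DM (H2-DMa with H2-DMb1 or H2-DMb2) then loads the peptide, and H2-DO (H2-Oa with H2-Ob) holds H2-DM back. Ciita is the co-activator that these promoters depend on. It acts without binding DNA itself, on a complex of RFX, CREB and NF-Y at the X and Y boxes, and is made constitutively in dendritic and B cells and after interferon gamma in many other cells. Resting microglia hold little class II, whereas dendritic cells, B cells and activated macrophages are the usual presenting cells.

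The genes lie mostly together. On the GRCm38 build with the GENCODE annotation, 8 of the 10 are on chromosome 17: H2-Oa at chr17:34092340-34095234, H2-DMa at chr17:34119541-34139101, H2-DMb2 at chr17:34143307-34151555, H2-DMb1 at chr17:34153072-34160230, H2-Ob at chr17:34238903-34254414, H2-Ab1 at chr17:34257689-34269419, H2-Aa at chr17:34282744-34287823 on the minus strand and H2-Eb1 at chr17:34305867-34316674. Ciita is at chr16:10480059-10528418, and Cd74 lies on another chromosome. H2-Eb1, Ciita, H2-DMa and H2-Oa overlap genes on the other strand (Gm20513, Dexi, Brd2 and BC051537), and whether counting used strand is not given in the sources used here. H2-DMa also overlaps CR974462.3 on its own strand and CR974462.4 on the other, so its count is uncertain in either case. The transcripts of H2-DMb1 and H2-DMb2 are 95.5% identical over 1058 aligned bases, and over the last 300 bases 144 aligned with 87.5% identity, so the division of reads between those 2 genes is uncertain. Over all cells kept, the depth behind the members ran from 2327 UMIs (unique molecular identifiers, each 1 counted RNA molecule) for H2-Ob to 514331 for Cd74, with 4672 for H2-Eb1.

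The promoters were searched for letters of the X and Y boxes, through which Ciita works. RefSeq promoter windows of 300 bases (250 before to 50 after the start, GRCm38.p6) were matched for 7 of the 10 members. A core of the X box (AGNAAC) and a core of the Y box (ATTGG) were searched on both strands, and the spacing of 31 to 34 bases between the first letters of the 2 cores was set after these windows had been seen. The pair was present for H2-Eb1, H2-DMb1, H2-Oa and H2-Ob, and in 0.21% (69) of all 32851 windows, while the X core alone was in 48.1% and the Y core alone in 37.4%. The H2-Aa and H2-DMb2 windows held the Y core without the X core, and neither of the H2-DMa windows held the pair. A missing core says only that these exact letters are not in the window. The stretch from 130 to 36 bases before the start is printed 5′ to 3′ for 3 members with the pair and for H2-Aa, which has the Y core alone, with the cores in capitals.
H2-Eb1 (chr17:34305737-34305831, plus strand): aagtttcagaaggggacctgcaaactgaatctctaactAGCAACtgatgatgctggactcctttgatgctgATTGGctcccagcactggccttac
H2-Ob (chr17:34238775-34238869, plus strand): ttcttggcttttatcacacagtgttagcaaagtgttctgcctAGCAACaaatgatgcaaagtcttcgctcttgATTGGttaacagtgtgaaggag
H2-Oa (chr17:34092249-34092343, plus strand): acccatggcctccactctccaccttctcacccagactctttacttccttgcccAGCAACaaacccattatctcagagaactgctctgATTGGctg
H2-Aa (chr17:34287859-34287953, minus strand): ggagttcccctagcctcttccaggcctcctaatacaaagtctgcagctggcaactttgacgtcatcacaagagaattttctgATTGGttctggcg

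Total depth was 68997476 to 186793886 UMIs per library, 48588 cells were kept, and cells were clustered without the class II genes. Clusters were named from other markers, which left 5121 cells (10.5%) unnamed, and every class is therefore called "-like". The unnamed cells include cluster M4 (265 cells), in which 7 of 12 macrophage and 6 of 11 microglia markers were too close to decide. M4 held 101 cells of UT, 22 and 34 of IgG replicates 1 and 2, 49 and 9 of BP replicates 1 and 2, 25 of BPI and 25 of CD40. Macrophage-like and microglia-like values leave these cells out. UT stood apart in its barcodes, which come from another barcode list than those of the other 6 libraries. Tumour-like cells of UT, and those of BP replicate 1, fell mostly into clusters of their own. The remaining libraries fell into 2 sets by their tumour-like clusters and their library numbers, IgG replicate 1 with BP replicate 2 and BPI, and IgG replicate 2 with CD40. Each group has at most 1 library in a set, so a test within a set could not be made and values within the sets are given side by side. Between 0 and 27 barcodes were shared by any pair of libraries. The number of cells decides what can be read: IgG replicates 1 and 2 held 40 and 36 macrophage-like, 133 and 703 microglia-like, 27 and 15 monocyte-like, and 3 and 6 conventional dendritic-like cells, against 1398, 211, 369 and 34 in BP replicate 1.

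Conventional dendritic-like cells, which prime T cells, held Cd74 in nearly every cell of every library. Levels are given as CPM, UMIs of a gene per 1000000 UMIs of the class in that library, and a pair of values for IgG or BP is replicate 1, then replicate 2. Cd74 stood at 29500 CPM in UT, 15300 in BPI, 13200 in CD40, 9970 and 13600 in IgG and 13400 and 15400 in BP. UT was the highest library, and the others lay between 9970 and 15400. With each cell thinned to 1000 UMIs, so that depth does not set the share, 96.2% to 100% of these cells had a Cd74 UMI, and the level in positive cells was 297 UMIs per 10000 in UT and 117 to 166 in the other 6 libraries. Ciita, at 181 to 418 CPM, was detected in these cells in all 7 libraries.

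H2-Ab1, the I-A beta chain, was at 13600 CPM in UT and 4530 to 9060 in the other 6 libraries of conventional dendritic-like cells. Cd74 was lower in the classes derived from them or next to them, in those libraries with at least 20 cells of the class. In mature dendritic-like cells, found mostly in UT (28 cells) and BP replicate 1 (58), Cd74 was at 6750 and 2020 CPM, and Ciita was at 0 UMIs and 17 CPM. BP replicate 2 (4 cells) and BPI (13) also held such cells, with Ciita at 190 and 80.5 CPM on 3 UMIs each. H2-Aa in this class was at 3580 CPM in UT, 800 and 4310 in BP and 5020 in BPI. Plasmacytoid dendritic-like cells held Cd74 at 2650 to 9010 CPM in the 6 libraries that had any of these cells. Only UT (36 cells), BP replicate 1 (203) and BPI (34) had at least 20 of them, at 7330, 2650 and 4000 CPM.

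B-like cells, of which only UT, BP replicate 1 and CD40 had at least 20 (40, 52 and 57), held Cd74 at 11600, 6570 and 6670 CPM and Ciita at 180, 220 and 250 CPM. H2-DMb2, the second H2-DM beta chain, was at 533, 373 and 401 CPM there, against 6.84 to 52.4 CPM over the 7 macrophage-like libraries. In conventional dendritic-like cells it was at 453 CPM in UT and 95 to 209 CPM in the other 6 libraries, so the levels of these 2 classes overlapped. Of the UMIs of both H2-DM beta genes, H2-DMb2 held 80.7% in B-like cells, 26.9% in conventional dendritic-like, 11.1% in microglia-like, 7.67% in macrophage-like and 7.02% in tumour-like cells. How far a wrong division of reads between these similar genes enters these shares was not tested. In B-like libraries with at least 20 such UMIs (3) the share was 78.5% to 82.2%, against 16.3% to 37.1% in the 6 such libraries of conventional dendritic-like cells, and the difference was not tested.

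**Figure D1:**
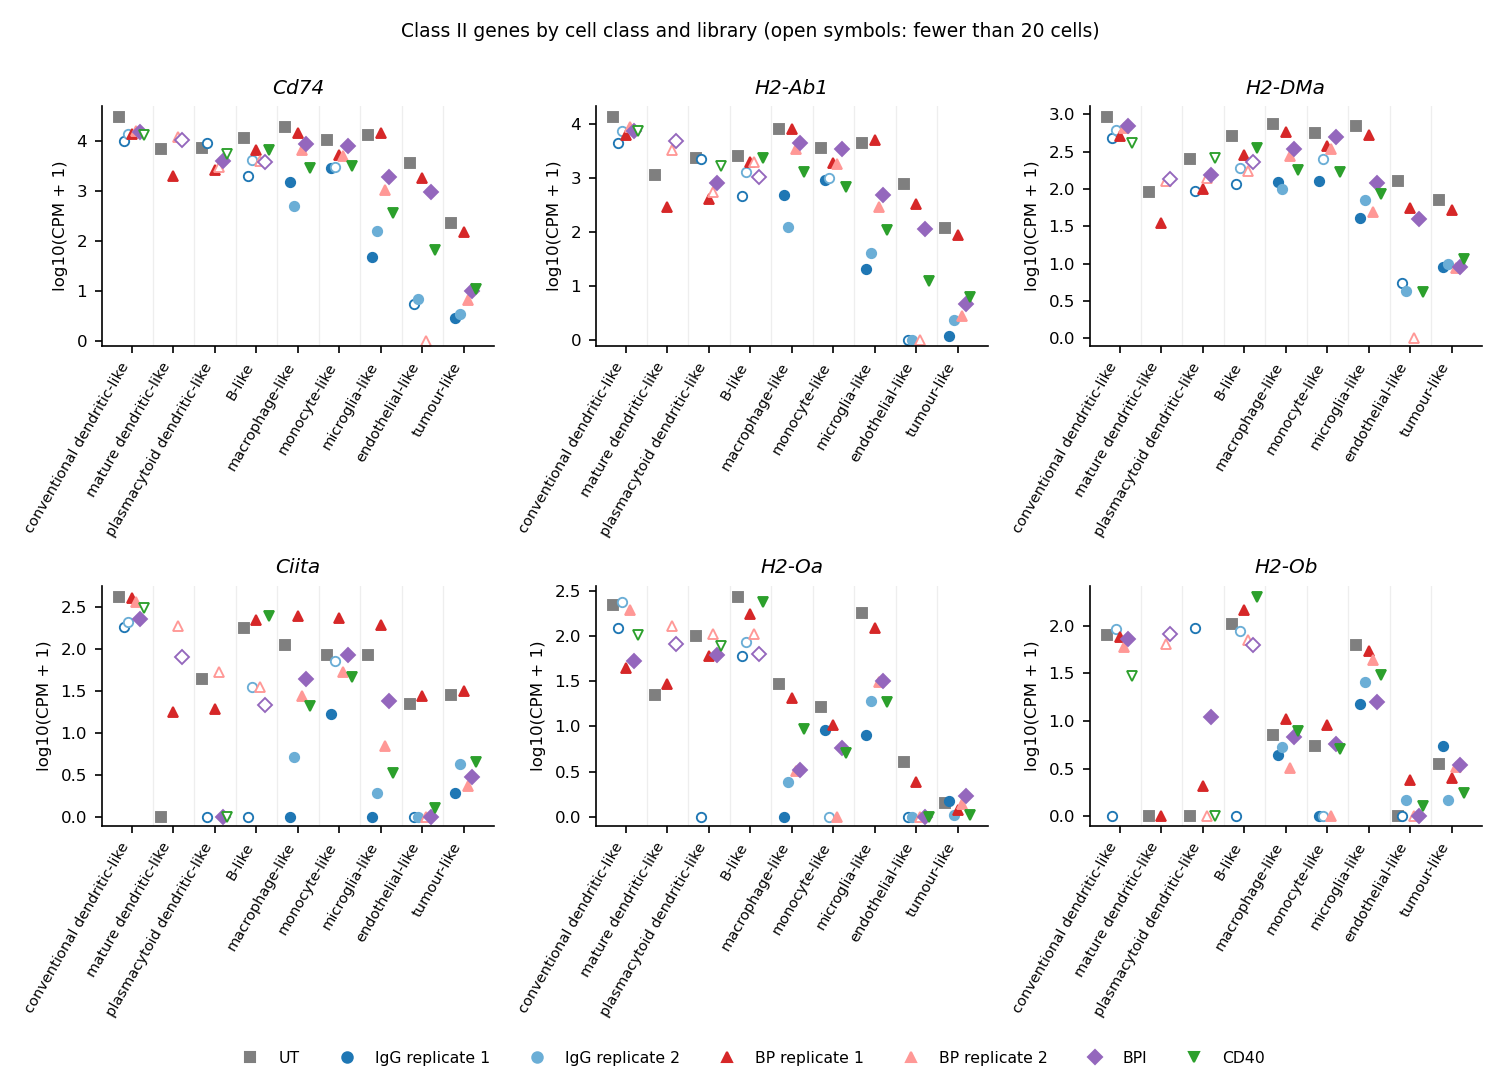
Level of 6 class II genes, as log10(CPM + 1), by cell class on the horizontal axis, 1 symbol per library and open symbols for fewer than 20 cells. Conventional dendritic-like cells sit high for Cd74 in all libraries, whereas microglia-like Cd74 spans 45.5 to 14200 CPM.

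By CPM, macrophage-like cells held more of the class II genes in both BP libraries, in BPI and in UT than in either IgG library, except for H2-Ob in BP replicate 2. Cd74 read 1490 and 506 CPM in IgG, 14100 and 6400 CPM in BP, 18500 CPM in UT, 8770 CPM in BPI and 2850 CPM in CD40. H2-Ab1 stood at 486 and 123 CPM in IgG, 8140 and 3440 in BP, 4550 in BPI, 1310 in CD40 and 8350 in UT. H2-Aa, the alpha chain, stood at 400 and 106 CPM in IgG, 6130 and 2350 in BP, 2880 in BPI, 1250 in CD40 and 8110 in UT. For all 3 genes the IgG libraries were the lowest of the 7, CD40 came next, and BPI lay between the 2 BP libraries. Within the set of IgG replicate 1, BP replicate 2 and BPI, Cd74 was at 1490, 6400 and 8770 CPM, and within that of IgG replicate 2 and CD40 at 506 and 2850 CPM.

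The thinned share of positive macrophage-like cells was higher in both BP libraries than in both IgG libraries for 8 of the 10 members. The share of all genes that did so on this measure was not computed, so this count has no background beside it. H2-DMb2 (2.5% and 0% in IgG, 3.65% and 1.52% in BP) and H2-Ob (0% and 2.78%, 0.715% and 0.758%) overlapped. After thinning, a Cd74 UMI was found in 42.5% and 13.9% of macrophage-like cells in IgG, 98.2% and 84.8% in BP, 87.9% in BPI, 54.1% in CD40 and 95% in UT. The unthinned shares were 72.5% and 33.3% in IgG, 99.9% and 93.2% in BP, 94.3% in BPI, 77.5% in CD40 and 98.7% in UT. The mean thinned share was 28.2% ± 20.2 (SD, n = 2) in IgG and 91.5% ± 9.45 (SD, n = 2) in BP, with p = 0.33 by a two-sided exact permutation test, which is the smallest p that 2 libraries against 2 allow. In T-like cells, which should lack Cd74, the thinned share was 0% to 11.0% at a median depth of 2391 to 6103 UMIs per cell, against 5202 to 17332 UMIs in macrophage-like cells. The level in Cd74-positive macrophage-like cells was 36.5 and 80.0 UMIs per 10000 in IgG, 132 and 89.0 in BP, 103 in BPI, 80.7 in CD40 and 194 in UT. The value of IgG replicate 2 came from 5 positive cells and that of IgG replicate 1 from 17. For H2-Ab1, 20% and 8.33% of macrophage-like cells were positive in IgG and 94.2% and 72.0% in BP, and the level in positive cells was 26.2 and 26.7 against 79.1 and 57.3 UMIs per 10000 (p = 0.33 for each, exact permutation test).

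**Figure D2:**
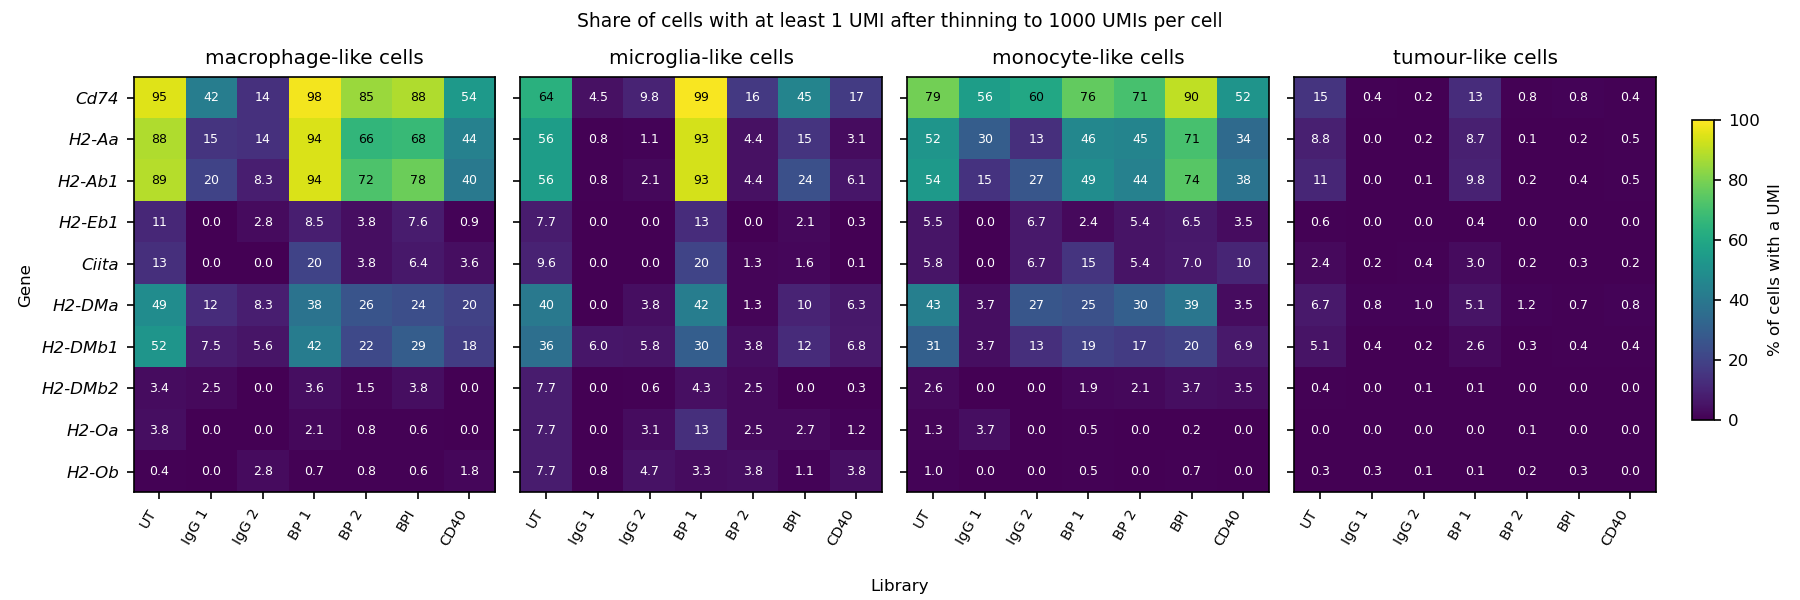
Percent of cells with at least 1 UMI of each member after thinning to 1000 UMIs per cell, by gene (rows) and library (columns), in 4 cell classes. Among macrophage-like cells the Cd74 share is 13.9% to 42.5% in IgG and 84.8% or more in BP, BPI and UT.

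Ciita, the co-activator, and H2-Eb1 were near the detection limit in the IgG macrophage-like cells. Ciita was at 0 UMIs in IgG replicate 1, where 3 UMIs would be 10.3 CPM, and at 4.29 CPM in IgG replicate 2, against 251 and 26.7 CPM in BP, 43.0 in BPI, 20.1 in CD40 and 110 in UT. H2-Eb1 was at 0 UMIs and 1.43 CPM in IgG, 105 and 27.8 CPM in BP, 74.4 in BPI, 32.4 in CD40 and 115 in UT. Both IgG libraries together held 1 H2-Eb1 UMI and 3 Ciita UMIs. The pooled ratio of BP to IgG was 99.7 for H2-Eb1 (exact 95% interval 17.9 to 3940) and 78.7 for Ciita (26.9 to 382), intervals that cover counting error only. BP replicate 1 held most of the pooled UMIs. For BP replicate 2 alone the ratio was 27.6 for H2-Eb1 (4.52 to 1130) and 8.83 for Ciita (2.68 to 45.8). Ciita UMIs were found in 20.1% and 3.79% of BP cells after thinning and in 0 of the 40 and 0 of the 36 IgG cells, for which the exact 95% upper limits are 8.81% and 9.74%.

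The peptide-loading genes differed by smaller ratios. H2-DMa was at 123 and 100 CPM in IgG macrophage-like cells, 575 and 272 in BP, 340 in BPI, 177 in CD40 and 746 in UT. H2-DMb1 was at 95.7 and 68.6 CPM in IgG, 572 and 215 in BP, 280 in BPI, 152 in CD40 and 762 in UT. H2-DMb2 was at 6.84 and 7.14 CPM in IgG, 52.4 and 20 in BP, 17.4 in BPI, 12.3 in CD40 and 46.3 in UT. In all 3 the IgG values were the lowest of the 7. The H2-DO genes stayed low: H2-Oa was at 0 to 28.5 CPM over the 7 libraries, with 1 UMI in the IgG libraries together, and H2-Ob at 2.22 to 9.52 CPM, with IgG (3.42 and 4.29 CPM) inside the range of BP (9.52 and 2.22 CPM).

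Tested over all 9178 genes with edgeR's quasi-likelihood test, BP against IgG called 10 genes in macrophage-like cells at an adjusted p under 0.05, all higher (0.109%), and H2-Eb1 was among them with a log2 fold change of 5.98 ± 0.97 (SE), adjusted p = 0.0442. That fitted value rests on 1 IgG UMI, and over the alternatives its edgeR adjusted p ran from 6.68e-10 without a filter on low counts to 1 with UT pooled with IgG. The H2-Eb1 call was also lost with estimated free RNA subtracted (edgeR adjusted p = 0.177), with doublets kept (0.0989) and without BP replicate 2 (0.122). Without IgG replicate 2, which holds that UMI, the fitted H2-Eb1 value was 11.04 for BP, 11.52 for BPI and 12.02 for UT. The other 8 members tested missed the threshold. Ciita had a log2 fold change of 5.48 ± 1.05 (edgeR adjusted p = 0.0686; 3.24 to 12.05 with 1 library left out), H2-Ab1 4.17 ± 0.83 and H2-Aa 3.99 ± 0.81 (both 0.0813), and Cd74 3.28 ± 0.78 (0.144). H2-DMb1, at 2.20 ± 0.54, had an adjusted p of 0.158 in edgeR, H2-DMa, at 1.87 ± 0.51, 0.222, H2-DMb2, at 2.34 ± 0.66, 0.252, and H2-Oa, at 3.48 ± 1.63 (2.97 to 8.52 with 1 library left out), 0.916. H2-Ob had too few counts to be tested. At an unadjusted p under 0.05, 8 of the 10 members passed, against a background of 4.09% of genes higher, and in 9 of 10 both BP libraries lay above both IgG libraries, which held for 15.3% of genes. The exception, H2-Ob, had not passed the filter on low counts, and H2-Oa had 1 UMI in IgG.

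The calls depended on which BP library was in the fit. Without BP replicate 1, with 1 BP library left, the log2 fold change in macrophage-like cells was 3.61 ± 0.42 for H2-Ab1, 3.34 ± 0.43 for H2-Aa and 2.78 ± 0.39 for Cd74. Without BP replicate 2, edgeR called 0 genes. The 2 BP libraries differed in their macrophage-like cells as clustered. All IgG cells of this class were in 1 cluster of 489 cells together with 126 of the 132 cells of BP replicate 2, 144 of the 157 of BPI and 108 of the 111 of CD40, while UT had 29 of 238 and BP replicate 1 had 6 of 1398 there. Within that cluster Cd74 was at 1490 and 506 CPM in IgG, 6180 in BP replicate 2, 8530 in BPI, 2710 in CD40 and 8210 in UT, so each of these lay above both IgG libraries there too. Of other cells' genes, the 11 microglia markers summed in macrophage-like cells to 1760 and 2930 CPM in IgG, 500 and 1270 in BP, 1340 in BPI, 2150 in CD40 and 908 in UT, so that BP, BPI and UT lay below both IgG libraries. The summed level of the 12 conventional dendritic markers was 120 and 161 CPM in IgG and 354 and 106 CPM in BP, and that of the 11 monocyte markers was 3680 and 534 CPM in IgG and 5660 and 3420 CPM in BP. The 12 macrophage markers themselves summed to 23500 and 55700 CPM in IgG and 21300 and 19000 CPM in BP. The part of these markers in the result was not tested.

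BPI against IgG gave values much like these in macrophage-like cells. edgeR called 11 of 9178 genes, all higher (0.12%), with H2-Eb1 at a log2 fold change of 6.44 ± 1.03 (adjusted p = 0.0322) as the member called. That call was lost with free RNA subtracted (edgeR adjusted p = 0.152), with doublets kept (0.0613), without BP replicate 2 (0.602) and with UT pooled with IgG (1). The fitted log2 fold change was 4.15 ± 0.89 for H2-Ab1 (edgeR adjusted p = 0.164), 3.37 ± 0.86 for Cd74 (0.273) and 4.13 ± 1.21 for Ciita (0.41). Without IgG replicate 2, the fitted Ciita value was 10.73. BPI lay above both IgG libraries for all 10 members, H2-Ob included, as it did for 21.9% of genes. BPI against BP called 0 genes in edgeR (0%), with 182 at an unadjusted p under 0.05 (0.414% of genes higher and 1.57% lower), 0 of them members, and DESeq2 called 0. CD40 against IgG called 0 genes in edgeR (0%), with 134 at an unadjusted p under 0.05, and DESeq2 called 3. At that unadjusted threshold 4 of the 10 members passed for CD40, all higher, against 0.774% of genes higher. The BP and BPI comparisons share both IgG libraries.

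UT against IgG gave the most members. Of 9289 genes, edgeR called 69 higher (0.743%) and 11 lower in macrophage-like cells, and 7 of the 9 members tested were among the higher ones. H2-Eb1 had a log2 fold change of 6.99 ± 0.99 (edgeR adjusted p = 0.00662), H2-Aa 5.16 ± 0.95 and H2-Ab1 4.94 ± 0.95 (both 0.027), and H2-DMb1 3.39 ± 0.65 (0.027). Ciita rose by 5.41 ± 1.12 (edgeR adjusted p = 0.0398), H2-DMa by 2.91 ± 0.61 (0.0416) and Cd74 by 4.37 ± 0.94 (0.0485). H2-DMb2 (2.89 ± 0.69, edgeR adjusted p = 0.075) and H2-Oa (4.98 ± 1.37, 0.145) missed the threshold. UT is 1 library of another barcode set, so treatment and library cannot be told apart. Without IgG replicate 2, H2-Ab1 had an edgeR adjusted p of 0.76 and Cd74 of 1, while H2-Eb1 (0.00176) and Ciita (0.00252, at a fitted value of 11.96) were still called. With free RNA subtracted or doublets kept, H2-Eb1 was the 1 member of the 9 under the threshold (edgeR adjusted p = 0.0378 and 0.0108).

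**Figure D3:**
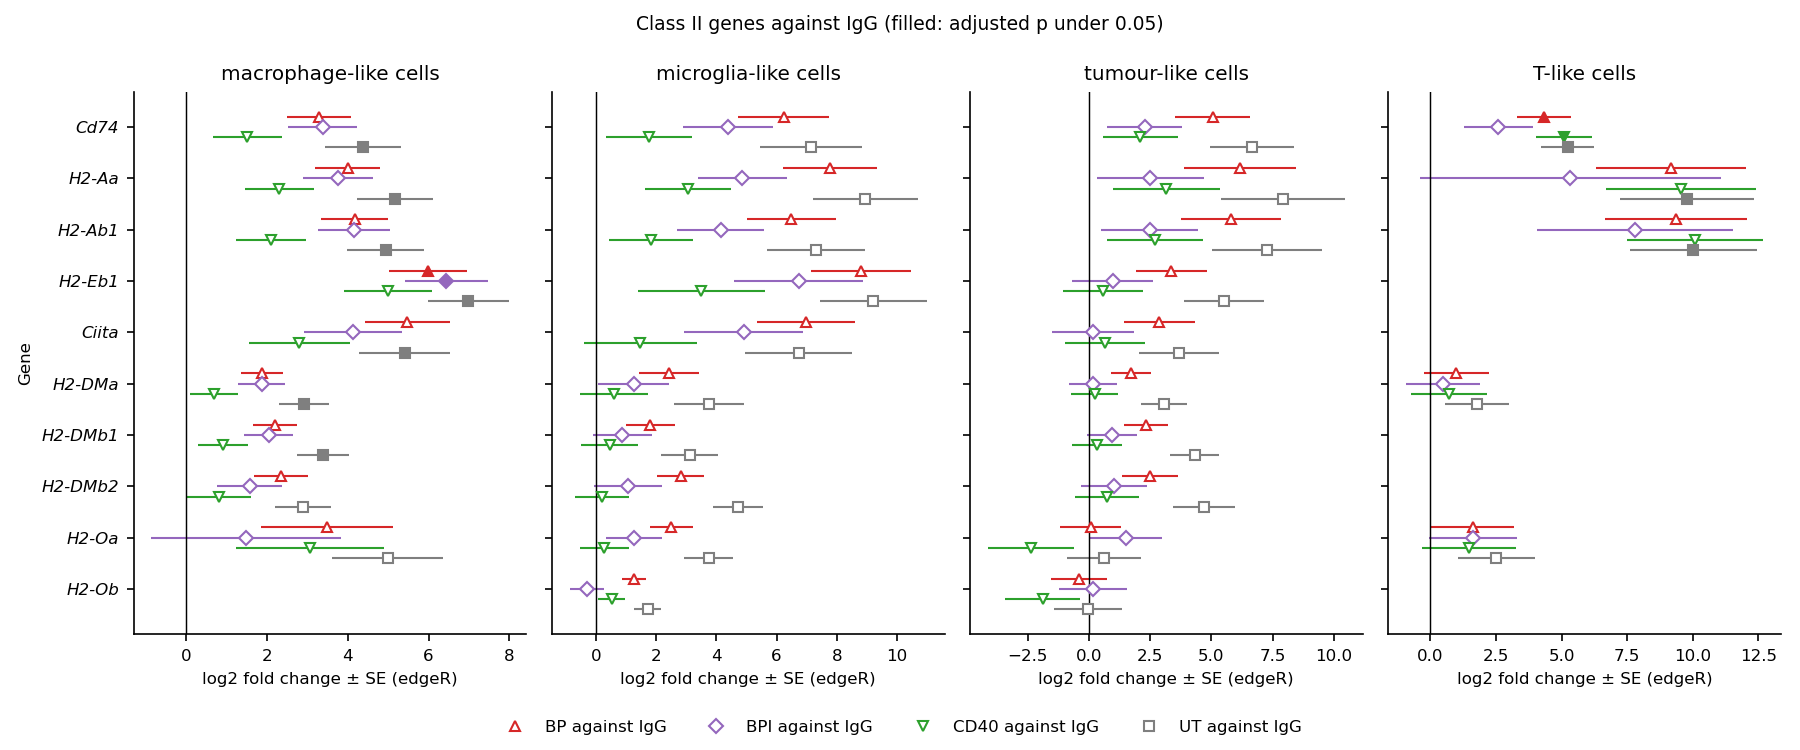
Log2 fold change ± SE from edgeR (horizontal axis) of each member (vertical axis) for BP, BPI, CD40 and UT against IgG in the 4 cell classes fitted, filled where the adjusted p is under 0.05. Filled symbols mark 1 of 9 members for BP and for BPI and 7 of 9 for UT in macrophage-like cells, and Cd74 (BP, CD40 and UT), H2-Ab1 and H2-Aa (UT) in T-like cells, where the fitted values of H2-Ab1 and H2-Aa depend on the prior count because both IgG libraries are at 0.

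In microglia-like cells, the brain's own macrophages, the libraries drew on different clusters. Cluster M7 (241 cells) held 208 of the 211 such cells of BP replicate 1 and 28 of the 52 of UT, against 3 of 703 in IgG replicate 2 and 0 in IgG replicate 1. Its 10 leading genes included 3 of the macrophage list (C1qa, C1qb and C1qc, of the complement pathway) and 0 of the microglia list. It was counted as microglia-like because 8 of 11 microglia markers, against 7 of 12 macrophage markers, reached at least 0.1 of their highest level in any cluster. P2ry12 was at 320 CPM and Sall1 at 141 CPM in M7, against 19.4 to 33.2 and 0 to 16.1 CPM in the 6 macrophage-like clusters, and Ms4a7, a macrophage marker, at 47.0 against 819 to 2100 CPM. Gpr34, Sparc and Fcrls, also microglia markers, were lower in M7 than in each of the other 9 microglia-like clusters, and Arg1, of the macrophage list, was at 423 CPM against 1.76 to 8.07 CPM in those. The values of this class are therefore given with M7. As an alternative added after seeing the data, levels of several members and the fits are also given without it, while shares of positive cells are given with M7 alone.

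With M7, Cd74 read 45.5 and 156 CPM in IgG, 14200 and 1040 CPM in BP, 13300 CPM in UT, 1910 CPM in BPI and 354 CPM in CD40. H2-Ab1 was at 19.9 and 40.7 CPM in IgG, 5250 and 292 in BP, 495 in BPI, 112 in CD40 and 4530 in UT. Both genes were lowest in the IgG libraries, with no overlap, and the 2 BP libraries lay far apart. Without M7, Cd74 was at 1730 CPM in UT (24 cells), 1050 in BP replicate 2 and 1920 in BPI, against 45.5 and 157 in IgG, and BP replicate 1 kept 3 cells. H2-Ab1 was then at 452 CPM in UT, 294 in BP replicate 2, 499 in BPI and 19.9 and 40.8 in IgG. Within the set of IgG replicate 1, BP replicate 2 and BPI, Cd74 was at 45.5, 1040 and 1910 CPM, and within that of IgG replicate 2 and CD40 at 156 and 354 CPM.

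The share of positive microglia-like cells, M7 included, split the same way. After thinning, Cd74 was found in 4.51% and 9.82% of cells in IgG, 99.1% and 16.5% in BP, 45.2% in BPI, 17.4% in CD40 and 63.5% in UT, and unthinned in 16.5% and 39.1%, 100% and 30.4%, 62.8%, 56.2% and 92.3%. BP replicate 2 unthinned lay inside the IgG range, at a median depth of 2910 UMIs per cell against 3357 and 7003 in IgG. The thinned means were 7.16% ± 3.75 (SD, n = 2) in IgG and 57.8% ± 58.4 (SD, n = 2) in BP (p = 0.33, exact permutation test). The level in positive cells was 15.0 and 16.4 UMIs per 10000 in IgG, 167 and 51.5 in BP, 40.8 in BPI, 19.7 in CD40 and 216 in UT. Cells with at least 2 different members after thinning were 0.752% and 3.70% in IgG, 98.6% and 6.33% in BP, 30.9% in BPI, 8.34% in CD40 and 57.7% in UT.

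Ciita was at 0 UMIs (3 UMIs would be 4.26 CPM) and 0.936 CPM in IgG microglia-like cells, 193 and 6.04 CPM in BP, 22.9 in BPI, 2.37 in CD40 and 84.0 in UT. H2-DMa, of the loading complex, was at 39.8 and 69.3 CPM in IgG and 527 and 48.3 in BP, so that here the groups overlapped. H2-DMb1 stood at 51.1 and 73.7 CPM in IgG and 369 and 54.4 in BP, and overlapped too. H2-Oa, the DO alpha chain, stood at 7.10 and 18.3 CPM in IgG, 122 and 30.2 in BP, 31.1 in BPI, 17.7 in CD40 and 178 in UT. These values include M7. Without it, UT had Ciita at 0 UMIs and H2-Oa at 16.6 CPM, below the 18.4 CPM of IgG replicate 2. H2-DMa fell from 688 to 133 CPM and H2-DMb1 from 501 to 236 CPM in UT. BP replicate 2 was then at 6.08 CPM for Ciita and 28.4 for H2-Oa, and BPI at 23.2 and 29.8 CPM, while BP replicate 1 kept 3 cells.

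For BP against IgG within microglia-like cells, 0 of 12113 genes passed in edgeR (0%), with 602 genes at an unadjusted p under 0.05, and DESeq2 called 37. The members' log2 fold changes were large with wide errors: 6.23 ± 1.52 for Cd74, 6.49 ± 1.48 for H2-Ab1 and 6.98 ± 1.62 for Ciita (edgeR adjusted p = 0.966 for each). At an unadjusted p under 0.05, 9 of the 10 members passed, against 2.63% of genes higher, and 8 of 10 lay above both IgG libraries in both BP libraries, against 14.8% of genes. Without BP replicate 1, with 1 BP library left, Cd74 was at 3.26 ± 0.54, H2-Ab1 at 3.12 and Ciita at 2.94. Without IgG replicate 2, Ciita was at 11.28. UT against IgG also called 0 of 9307 genes in edgeR (0%, with 935 at an unadjusted p under 0.05, 96 in DESeq2), with Cd74 at 7.14 ± 1.68 (adjusted p = 0.42; 0.000284 without BP replicate 1 and 0.00584 without BP replicate 2, which share the estimate of the spread), and UT lay above both IgG libraries for 10 of 10 members and 32.6% of genes. The remaining 3 comparisons in this class also had 0 genes called by edgeR (0%): BPI against IgG (478 at an unadjusted p under 0.05, 23 by DESeq2), CD40 against IgG (39, and 0 by DESeq2) and BPI against BP (406, and 2 by DESeq2).

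Without cluster M7, where BP replicate 1 had too few cells to be fitted, edgeR called 66 of 8939 genes for BPI against IgG. Among them were Cd74 (log2 fold change 4.33 ± 0.55, edgeR adjusted p = 0.00914), H2-Ab1 (4.07 ± 0.38, 0.00255) and H2-Aa (4.69 ± 0.46, 0.00293). UT against IgG called 47 genes, Cd74 (edgeR adjusted p = 0.0147), H2-Ab1 (3.75 ± 0.39, 0.00296) and H2-Aa (5.39 ± 0.46, 0.000749) among them. For BP, now 1 library, 2 genes were called, 1 of them H2-Aa (4.60 ± 0.46, edgeR adjusted p = 0.0304), while Cd74 (3.27 ± 0.54, 0.118) and H2-Ab1 (3.13 ± 0.39, 0.0611) missed the threshold and H2-DMa was at -0.24 and H2-DMb1 at -0.29. CD40 against IgG called 0 genes in edgeR, with 84 at an unadjusted p under 0.05, and BPI against BP called 0, with 681. BPI, CD40, UT and BP are 1 library each in this fit, and their spread was taken from the IgG libraries.

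The high level went with cluster M7. It had Cd74 at 14700 CPM and a Cd74 UMI in 98.3% of its cells before thinning, while the other microglia-like clusters were at 91.5 to 2920 CPM. The next highest, M15 (98 cells, 80 of them from BPI), had Cd74 at 2920 CPM and the interferon-induced chemokine Cxcl10 at 3080 CPM. In cluster M11, the 1 microglia-like cluster with at least 20 cells of both IgG libraries and of BP or BPI, Cd74 was at 51.4 and 102 CPM in IgG, 462 in BP replicate 2, 759 in BPI and 209 in CD40. In M12 it was at 30.4 and 191 CPM in IgG and 523 in CD40. In 5 further clusters with at least 20 cells of IgG replicate 2 and CD40, CD40 was higher in M10 (289 against 152 CPM) and M20 (114 against 38.9) and lower in M14, M21 (122 against 167) and M22 (147 against 163). None of these cluster values was tested. The microglia markers summed to 5720 CPM in BP replicate 1 against 10700 to 16400 CPM in the other 6 libraries, and the macrophage markers to 20700 against 14000 to 28000 CPM, so BP replicate 1 was the lowest for microglia markers and in the middle for macrophage markers. Conventional dendritic markers summed to 355 and 418 CPM in IgG, 533 and 439 in BP, 442 in BPI, 386 in CD40 and 417 in UT, with Clec9a and Cd209a at 0. Both BP libraries and BPI thus lay above both IgG libraries (2 of 12 markers were higher in both BP libraries), and the part of these markers in the result was not tested.

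**Figure D4:**
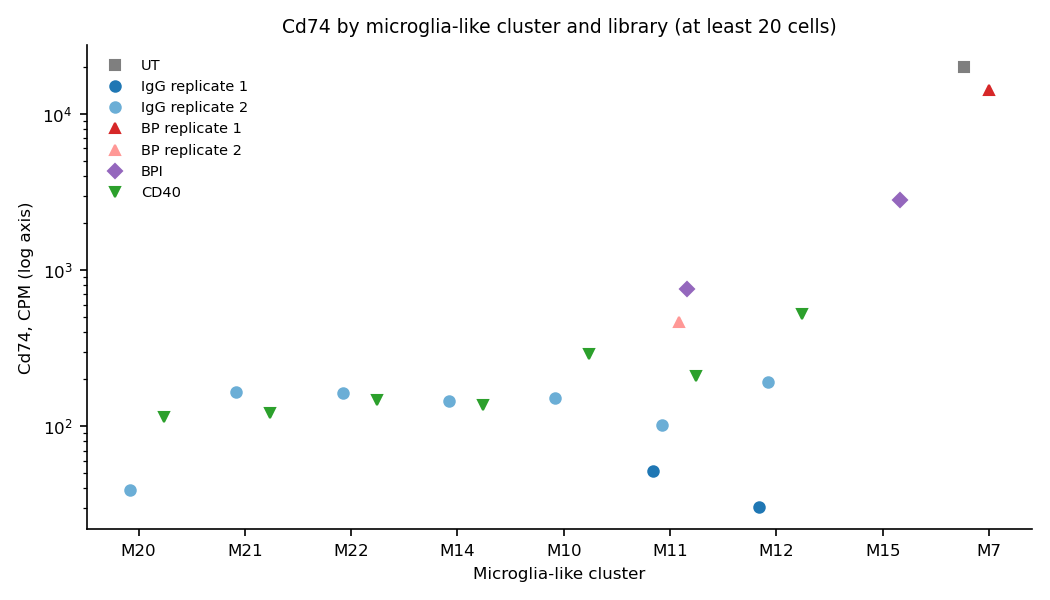
Cd74 in CPM (log axis) by microglia-like cluster, 1 symbol per library with at least 20 cells in the cluster. Cluster M7 holds UT and BP replicate 1 alone, and in M11 BP replicate 2 (462), BPI (759) and CD40 (209) lie above the IgG libraries (51.4 and 102).

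Monocyte-like cells, the blood-derived precursors, held Cd74 at 2920 to 10600 CPM over the 7 libraries. It stood at 2920 and 3010 CPM in IgG, 5180 and 4940 in BP, 7950 in BPI, 3110 in CD40 and 10600 in UT. The 2 IgG libraries were the lowest, but IgG replicate 2 had 15 cells, so no gene test was run in this class. Different clusters held most of these cells: M1 257 of the 308 in UT, M6 339 of the 402 in BPI, 71 of the 93 in BP replicate 2 and 17 of the 27 in IgG replicate 1, M9 230 of the 369 in BP replicate 1, and M8 14 of the 15 in IgG replicate 2 and 28 of the 29 in CD40. Within M8, the 1 cluster with at least 20 cells of 4 libraries, Cd74 was at 5430 CPM in BP replicate 1, 6200 in BPI, 3030 in CD40 and 5630 in UT. After thinning, 55.6% and 60% of cells were Cd74-positive in IgG, 75.9% and 71.0% in BP, 90.3% in BPI, 51.7% in CD40 and 78.9% in UT. The level in positive cells was 46.0 and 43.3 UMIs per 10000 in IgG and 63.6 and 67.4 in BP. Ciita, at 16.0 and 70.7 CPM in IgG and 234 and 52.1 in BP, overlapped. The IgG values rest on 2 UMIs in 2 cells and on 7 UMIs in 1 cell.

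Endothelial-like cells, which line the vessels that VEGF acts on, held class II in UT, BP replicate 1 and BPI. Cd74 was at 3550 CPM in UT, 4.52 and 6.03 in IgG, 1780 and 0 in BP, 936 in BPI and 65.9 in CD40. BP replicate 2 had 8 such cells, in which 3 UMIs would be 110 CPM, and IgG replicate 1 had 13. Thinned shares of positive cells were 38.1% in UT, 1.03% in IgG replicate 2, 57.5% in BP replicate 1, 29.2% in BPI and 5.35% in CD40. Free RNA, taken from barcodes of fewer than 100 UMIs, was estimated to give 11.1%, 16.1% and 5.01% of these Cd74 UMIs in UT, BP replicate 1 and BPI. The estimate was higher for the chains: 24.3%, 60.3% and 10.5% for H2-Aa, 21.9%, 46.9% and 19.2% for H2-Ab1 and 60.4%, 56.3% and 8.62% for H2-Eb1. A cluster of 55 cells (V3), 17 from UT, 25 from BP replicate 1 and 10 from BPI, held Cd74 at 3070 CPM, against 10.2 to 270 CPM in the other endothelial-like clusters. Cxcl9, another interferon-induced chemokine, was at 1710 CPM there. Macrophage markers in endothelial-like cells summed to 194 and 340 CPM in IgG, 589 and 589 in BP, 481 in BPI, 602 in CD40 and 438 in UT, so that each of the other 5 libraries lay above both IgG libraries (2 of 12 markers were higher in both BP libraries), and their part in the result was not tested.

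Summed over all clusters, tumour-like cells held class II at a low level, while cluster 11, given below, was higher. Cd74 was at 1.92 and 2.44 CPM in IgG, 150 and 5.47 in BP, 9.10 in BPI, 10.1 in CD40 and 224 in UT. After thinning, 0.403% and 0.24% of tumour-like cells had a Cd74 UMI in IgG, 12.8% and 0.777% in BP, 0.825% in BPI, 0.393% in CD40 and 15.1% in UT. Thinned T-like cells, which should lack the gene, gave 0% and 0% in IgG, 9.69% and 1.32% in BP, 2.01% in BPI, 2.96% in CD40 and 11.0% in UT, so the tumour-like share is 12.8% beside 9.69% in BP replicate 1 and 15.1% beside 11.0% in UT. Unthinned, at a median of 21548 and 20627 UMIs per cell, 76.7% and 77.4% of tumour-like cells of BP replicate 1 and UT had a Cd74 UMI.

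The members differed in how much of this free RNA could give. In UT and BP replicate 1, the free RNA estimate was 57.2% and 57.8% of the Cd74 UMIs in tumour-like cells and 46.7% and 53.7% of those of H2-Ab1, but 13.2% and 10.9% of those of H2-DMa and 4.55% and 6.36% of those of Ciita. It was 64.3% of the Cd74 UMIs in CD40 and 117% to 321% in the other 4 libraries, where the measured level was below the estimate. Ciita in tumour-like cells was at 0.958 and 3.26 CPM in IgG, 31.2 and 1.36 in BP, 1.98 in BPI, 3.53 in CD40 and 27.3 in UT. H2-DMa was at 7.94 and 8.79 CPM in IgG, 51.1 and 7.80 in BP, 8.02 in BPI, 10.7 in CD40 and 71.2 in UT. For both genes UT and BP replicate 1 were high, and BP replicate 2 lay near or below the IgG libraries.

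**Figure D5:**
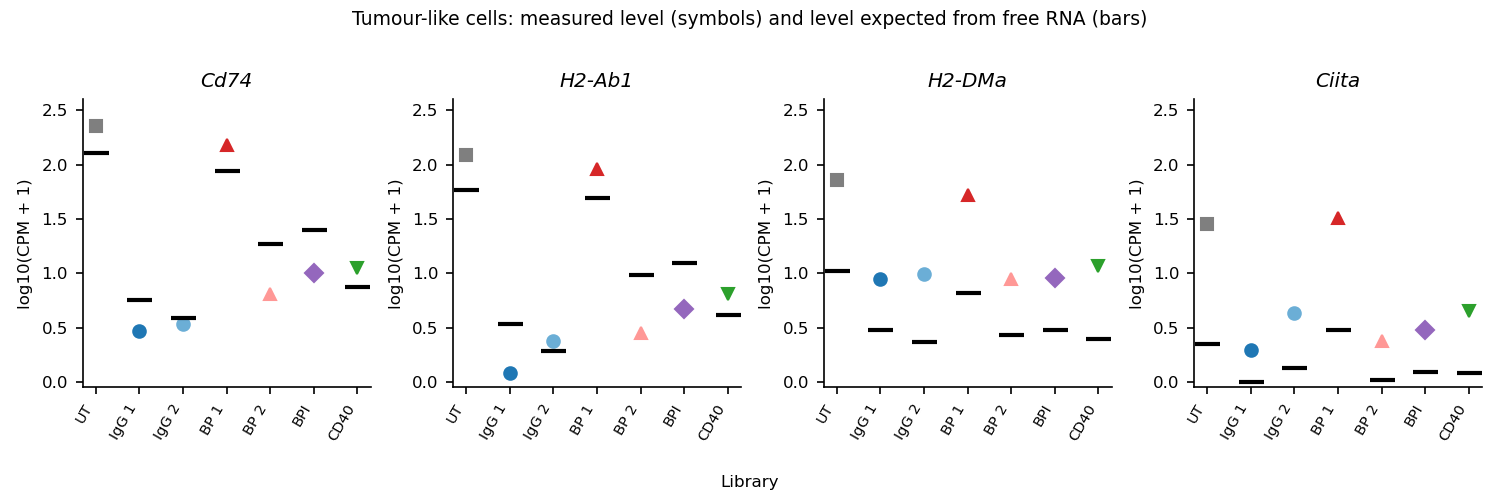
Measured level of 4 class II genes in tumour-like cells (symbols) and the level expected from free RNA (black bars), as log10(CPM + 1), by library. In UT and BP replicate 1 the Ciita and H2-DMa symbols lie well above their bars, while the free RNA estimate is 57.2% and 57.8% of Cd74.

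Among tumour-like cells of UT with a Ciita UMI (729), 29.2% had Cd74 after thinning, against 9.66% of those without. In BP replicate 1 the shares were 15.6% among 1764 Ciita-positive cells and 11.2% among the others. Ciita was not thinned in this comparison, so deeper cells count as positive more often. The UT cells also came from clusters that differed in both genes. Ciita was at 58.4 and Cd74 at 409 CPM in the UT cells of cluster 6, against 2.54 and 71.8 CPM in those of cluster 3. The part of the clusters in these shares was not tested. Relative to Cd74, H2-DMa held 31.8% (UT) to 415% (IgG replicate 1) as many UMIs in tumour-like cells over the 7 libraries, with 34% in BP replicate 1, and 3.87% to 19.8% in macrophage-like cells. Ciita held 12.2% to 134% as many in tumour-like and 0% to 1.78% in macrophage-like cells. Neither pair of ranges overlapped, and the difference was not tested. The H2-DMa ratio was not particular to tumour-like cells. It was 3.72% to 87.5% in microglia-like and 9.3% to 45.2% in T-like cells, which overlap the tumour-like range. The Ciita ratio, at 0% to 1.36% in microglia-like and 1.75% to 4.65% in T-like cells, lay below the tumour-like range. The macrophage markers in tumour-like cells summed to 433 CPM in UT, 224 and 135 in IgG, 342 and 288 in BP, 301 in BPI and 184 in CD40, with 5 of the 12 higher in both BP than in both IgG libraries. The T markers summed to 38.3 CPM in UT, 7.45 and 10.6 in IgG, 25.6 and 9.74 in BP, 13.8 in BPI and 12.5 in CD40 (8 of 9 higher in both BP libraries). The monocyte markers summed to 432 CPM in BP replicate 1 and 144 to 190 in the other 6 libraries (7 of 11), and the conventional dendritic markers to 374 CPM in UT and 159 to 195 in the others (2 of 12). The part of these markers in the result was not tested. By cluster, Cd74 was at 409 CPM in the 864 UT cells of cluster 6, 71.8 CPM in the 1502 UT cells of cluster 3, 111 CPM in the 4375 BP replicate 1 cells of cluster 7 and 1.66 to 6.42 CPM in the 8 clusters made of the other 5 libraries. Cluster 11, which holds cells of several libraries, had 2180 CPM in its 24 UT cells, 675 in its 387 BP replicate 1 cells, 199 in its 222 CD40 cells and 44.5 in its 157 IgG replicate 2 cells. Its leading genes included Gfap, of the tumour list, and Aldoc, of the astrocyte list. It was named from 11 of 11 tumour markers, and the naming rule did not set the tumour and astrocyte lists against each other. Whether its cells were tumour cells or astrocytes was not tested.

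For BP against IgG, 0 of 20224 genes passed in edgeR in tumour-like cells (0%), with 389 at an unadjusted p under 0.05, and DESeq2 called 50. The log2 fold change was 5.04 ± 1.53 for Cd74, 2.86 ± 1.46 for Ciita and 1.72 ± 0.82 for H2-DMa (edgeR adjusted p = 1 for each). At an unadjusted p under 0.05, 4 of the 10 members passed, against 1.73% of genes higher, and 4 of 10 did not overlap, against 9.52%. Without BP replicate 1, Cd74 was at 1.44, Ciita at -0.49 and H2-DMa at 0.01, so the Ciita and H2-DMa differences rested on that library. UT against IgG called 0 of 20009 genes in edgeR (0%, with 2428 at an unadjusted p under 0.05, and 805 by DESeq2), with Cd74 at 6.65 ± 1.72 (adjusted p = 0.388). UT lay above both IgG libraries for 8 of 10 members, as it did for 40.3% of genes. The other 3 comparisons had 0 calls in edgeR (0%): BPI against IgG (194 genes at an unadjusted p under 0.05, 8 by DESeq2), CD40 against IgG (13, and 0 by DESeq2) and BPI against BP (33, and 0 by DESeq2).

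T-like cells, the cells that read class II and in the mouse make little of it, were the fourth class with enough cells to fit. Cd74 was at 8.19 and 0 CPM in IgG (1 UMI in both libraries together), 123 and 14.8 in BP, 118 in UT, 16.9 in BPI and 109 in CD40. The free RNA estimate was 84.4% and 79.1% of these Cd74 UMIs in BP, 133% in UT and 178% in BPI, but 2.54% in CD40. In CD40, 11 of 135 cells held all 86 Cd74 UMIs, and 2 cells held all 40 UMIs of H2-Ab1. H2-Ab1 and H2-Aa were at 0 UMIs in both IgG libraries, where 3 UMIs would be 24.6 and 13.3 CPM, and at 50.5 and 42.8 CPM in UT. Ciita had 0 to 24 UMIs per library and was not tested.

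Of 5 members tested in T-like cells, BP against IgG called Cd74 (log2 fold change 4.33 ± 1.05, edgeR adjusted p = 0.027) among 63 genes, 50 of them higher (0.540%). The pooled Cd74 ratio to IgG, which rests on 1 IgG UMI, was 40.1 for BP (exact 95% counting interval 7.19 to 1590), 38.0 for CD40 (6.64 to 1520) and 40.8 for UT (7.25 to 1620). BP replicate 1 set the BP value, and BP replicate 2 alone gave 5.15 (0.749 to 222). CD40 against IgG called Cd74 (5.11 ± 1.07, edgeR adjusted p = 0.0218) among 9 genes, 4 of them higher (0.0432%). UT against IgG called Cd74 (5.24 ± 1.02, edgeR adjusted p = 0.000457), H2-Ab1 (0.00887) and H2-Aa (0.0172) among 230 genes, 119 of them higher (1.26%). BPI against IgG called 47 genes, 38 higher (0.410%), and BPI against BP 12, 3 higher (0.0324%), with 0 members in either. With free RNA subtracted 0 members were called in any of these comparisons, and Cd74 had an edgeR adjusted p of 0.858 for BP, 0.25 for CD40 and 0.431 for UT. The Cd74 calls for BP and CD40 were also lost with doublets kept (edgeR adjusted p = 0.362 and 1), without BP replicate 1 (0.951 and 0.239), without IgG replicate 2 (0.537 and 0.327), with UT pooled with IgG (0.999 and 1) and in DESeq2 (0.412 and 1). Without IgG replicate 1, which holds the 1 UMI, the fitted Cd74 value was 10.66 for BP, 11.44 for CD40 and 11.46 for UT, and without BP replicate 1 it was 2.27 for BP. For UT, the Cd74 call was lost without IgG replicate 2 (edgeR adjusted p = 0.0579), with doublets kept (0.0532) and in DESeq2 (0.0752).

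H2-Oa and H2-Ob, the subunits of the inhibitor H2-DO, followed another order over the classes than the other members. H2-Ob was higher in microglia-like than in macrophage-like cells in 7 of 7 libraries: 61.9 against 6.19 CPM in UT, 14.2 and 24.3 against 3.42 and 4.29 in IgG, 52.9 and 42.3 against 9.52 and 2.22 in BP, 14.7 against 5.81 in BPI and 29.5 against 6.88 in CD40. The macrophage-like values rest on 25 UMIs in UT, 1 and 3 in IgG, 141 and 2 in BP, 5 in BPI and 14 in CD40. Exact 95% intervals of the 2 classes overlapped in IgG replicate 1 (6.81 to 26.1 against 0.0866 to 19.1 CPM) and BPI (6.74 to 28 against 1.89 to 13.6). The mean paired difference in log2(CPM + 10) was 1.42 ± 0.58 (SD, n = 7), with p = 0.0156 by a two-sided exact sign-flip permutation test, the smallest that 7 libraries allow, and 0.142 after adjustment over the 50 neighbouring pairs of classes tested. With M7 included, as in this test, both BP libraries lay above both IgG libraries for H2-Ob in microglia-like cells, with BPI inside the IgG range. Without M7, H2-Ob was at 0 UMIs in the 3 cells left in BP replicate 1, 20.7 CPM in UT and 14.2 to 42.6 CPM in the other libraries. Every library but BP replicate 1 then stayed above its macrophage-like value, and the paired difference without M7 was not tested. In B-like cells H2-Ob was at 103, 145 and 199 CPM and H2-Oa at 270, 173 and 238 CPM in UT, BP replicate 1 and CD40. Per library, H2-Ob made 0% to 2.98% of the Cd74 count in B-like cells, 0.374% to 31.2% in microglia-like cells, where IgG was highest (31.2% and 15.6%) and BP replicate 1 lowest, and 0.0334% to 0.847% in macrophage-like cells. The B-like and microglia-like ranges overlapped.

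The order of the other members was macrophage-like above microglia-like above tumour-like cells in most libraries. Cd74 was higher in macrophage-like than in microglia-like cells in 6 of 7 libraries, with a mean difference of 2.09 ± 1.60 (SD, n = 7) in log2(CPM + 10) (exact p = 0.0312, adjusted 0.142), the exception being BP replicate 1 (14100 against 14200 CPM), whose microglia-like cells were mostly of cluster M7. H2-DMa was higher in macrophage-like than in microglia-like cells in 7 of 7 libraries (0.98 ± 0.80, SD) and higher in microglia-like than in tumour-like cells in 7 of 7 (2.36 ± 0.67), both at an exact permutation p of 0.0156, adjusted 0.142. None of the 50 neighbouring pairs passed the adjusted threshold, and monocyte-like and macrophage-like cells did not differ in Cd74 beyond their spread (-0.28 ± 0.82, SD, n = 6; exact p = 0.438).

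The ratio of H2-Eb1, whose partner chain is missing in this strain, to H2-Ab1 differed between classes. It was 5.79% in B-like, 2.15% in microglia-like, 1.79% in conventional dendritic-like and 1.32% in macrophage-like cells. Monocyte-like cells gave 2.04%, plasmacytoid dendritic-like 2.49% and mature dendritic-like 3.79%. Over libraries with at least 20 H2-Ab1 UMIs the ratio ran from 5.08% to 7.69% in B-like, 0.329% to 2.98% in microglia-like, 0% to 2.22% in conventional dendritic-like and 0% to 2.48% in macrophage-like cells. It ran from 0% to 4.68% in monocyte-like and from 1.92% to 4.85% in mature dendritic-like cells. Plasmacytoid dendritic-like cells, at 2.06% to 6.25%, overlapped the B-like range. These are ratios of UMI counts from 1 end of the transcript, not divided by length, and they serve to compare classes and not the 2 genes. Tumour-like cells gave 5.42% (4.15% to 10.2%), and none of these differences was tested. Free RNA was estimated to give 61.6% of the tumour-like H2-Eb1 UMIs in UT, 25.9% and 73.9% in BP, 94.7% in BPI, 25.6% in CD40 and 25% in IgG replicate 2. BP replicate 2, BPI, IgG replicate 2 and CD40 held only 10, 14, 17 and 30 of these UMIs. H2-Eb2, a neighbouring class II gene outside the 10, was seen mainly in B-like cells, at 70.7, 55.0 and 138 CPM in UT, BP replicate 1 and CD40.

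Other genes of the pathway were read from a list of transcription factors, the interferon gamma pathway, proteases, surface turnover, co-stimulation and receptors. In macrophage-like cells 0 of the 34 list genes tested passed in BP, BPI or CD40 against IgG, and 3 of 35 passed in UT, all higher: Cd40, the co-stimulatory receptor (log2 fold change 4.12 ± 0.65, edgeR adjusted p = 0.0111), Irf1, a transcription factor of the interferon response (3.80 ± 0.71, 0.027), and Socs1, its feedback inhibitor (4.04 ± 0.78, 0.027). In microglia-like cells 0 of 37 (33 in UT) and in tumour-like cells 0 of 38 passed. In T-like cells 31 were tested, and 2 passed for BP (Lag3, an inhibitory receptor for class II, and Ifng), 2 for BPI (Irf8 and Ifng), 0 for CD40, 1 for BPI against BP (Ifng) and 5 for UT, of which Lag3, Irf8, Ctsb and Cd80 were higher and Cxcr4 lower. Lag3 had a log2 fold change of 4.56 ± 0.98 for BP (edgeR adjusted p = 0.0102), a fitted value that rests on 1 UMI in both IgG libraries together. That call was lost without BP replicate 1 (edgeR adjusted p = 0.684) or IgG replicate 2 (0.104, at a fitted 10.86), with the replicate block (0.116), with doublets kept (0.299) and with UT pooled with IgG (0.999, at -0.83). The UT calls of Cd40, Irf1 and Socs1 were lost without IgG replicate 2 (edgeR adjusted p = 0.103, 0.14 and 0.091), those of Irf1 and Socs1 with free RNA subtracted (0.0815 and 0.0904) and that of Socs1 with doublets kept (0.0512). Among all list genes tested in macrophage-like cells the median log2 fold change for BP was 0.34, against 0.02 for all genes.

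Irf1 in macrophage-like cells was at 34.2 and 20 CPM in IgG, 294 and 70.0 in BP, 140 in BPI, 30.9 in CD40 and 321 in UT. Socs1 was at 20.5 and 10.0 CPM in IgG, 212 and 41.1 in BP, 54.7 in BPI, 5.90 in CD40 and 204 in UT. For both genes the BP, BPI and UT libraries lay above both IgG libraries, and CD40 lay below the higher IgG value or below both, unlike for Cd74 and H2-Ab1, where CD40 was above both. Ctss, the protease that cleaves the invariant chain, was at 3480 and 2100 CPM in macrophage-like cells of IgG and 6530 and 3380 in BP, which overlap. Cd86, a ligand for CD28, was at 212 and 229 CPM in IgG, 335 and 533 in BP, 719 in BPI, 404 in CD40 and 339 in UT. Ifng itself, read in T-like cells and not in NK-like cells, was at 57.3 and 97.7 CPM in IgG, 334 and 406 in BP, 1580 in BPI, 38.2 in CD40 and 289 in UT. The log2 fold change of Ifng in T-like cells was 2.05 ± 0.49 for BP (edgeR adjusted p = 0.0259), 4.37 ± 0.55 for BPI (3.99e-07) and 2.32 ± 0.49 for BPI against BP (0.0126), and 1.77 ± 0.55 for UT (0.0645). The Ifng call for BP was lost in DESeq2 (adjusted p = 0.052), without BP replicate 1 (edgeR adjusted p = 0.056), IgG replicate 1 (0.42) or IgG replicate 2 (0.511), with the replicate block (0.0592), with UT pooled with IgG (0.999) and with doublets kept (0.233). That of BPI against BP was lost in DESeq2 (0.109), without BP replicate 1 (edgeR adjusted p = 1), IgG replicate 1 (0.0686) or IgG replicate 2 (0.0812), with free RNA subtracted (0.0937), with UT pooled (1) and with doublets kept (0.655). That of BPI against IgG was lost with UT pooled with IgG alone (0.0893).

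The genes most alike the class II chains over 64 sums of class and library were found by correlation with the mean of H2-Aa, H2-Ab1, H2-Eb1 and Cd74, each scaled, among 13476 genes. Among the 10 highest were Dnase1l3 (Pearson r = 0.861), Ifi30 (0.842), Cd40 (0.837), Irf5 (0.823), Gm20513 (0.803), Serpina3g (0.783), C130026I21Rik (0.781), Tmem219 (0.779) and Wdfy4 (0.778). Ifi30 is a thiol reductase of antigen processing, and Gm20513 overlaps H2-Eb1 on the other strand. The sums share libraries and depth, and Wdfy4 was also used to name dendritic clusters, so these values are a description. Of the members, H2-Oa (0.681) and H2-Ob (0.601) followed these chains least.

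Within macrophage-like cells of 5 libraries, the genes whose level went most with Cd74 over cells, among 6877, were Ly6e (median r = 0.43), Cd52 (0.409), Ifitm3 (0.33), Ly6i (0.314) and Ifi27l2a (0.304), followed by C3, Prdx5, Cfb, Cst3 and Ifi30 (0.29 to 0.303). Several of these are known interferon-induced genes. Ly6e (0.0795 to 0.482), Cd52 (0.0726 to 0.484), Ly6i (0.257 to 0.427), C3, Prdx5, Cfb and Ifi30 were positive in all 5 libraries. By contrast, Ifitm3 (-0.169 to 0.431), Ifi27l2a (-0.325 to 0.434) and Cst3 (-0.0771 to 0.381) changed sign between libraries. Both IgG libraries, with 40 and 36 such cells, had too few to be among the 5. The most opposite were Pde4d (-0.364), Cd63 and Fabp5 (both -0.328), Ctsd (-0.323) and Ak1 (-0.277), followed by Ctsl, Spp1, Nav2, Abca1 and Lyst (-0.277 to -0.258). Of these 10, Spp1 (-0.474 to -0.129) and Nav2 (-0.287 to -0.0491) were negative in all 5 libraries, and the other 8 were positive in at least 1. Ctsd and Ctsl are lysosomal proteases, Fabp5 and Abca1 handle lipids, and Spp1 encodes osteopontin. Among the members, H2-Ab1 (0.89) and H2-Aa (0.886) followed Cd74 over cells most, then H2-DMb1 (0.502), H2-DMa (0.462), H2-Eb1 (0.332), Ciita (0.322) and H2-DMb2 (0.209). Cells of 1 library share its free RNA, depth differs between cells, and a weak correlation of a sparse gene is no finding.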

How the data were processed

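Whole tumours gave 7 droplet single-cell libraries, grouped by their titles. What the authors deposited is a matrix of UMI counts, not normalized, over all barcodes, with Cell Ranger 4 in the file headers and 7.0.1 and mm10 in the submitters' processing notes. The labels state V2 chemistry for all libraries although UT has another barcode list. The members, gene lists, markers and tests were chosen with earlier results of these data known, and the rule that names clusters was set after seeing them.

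Kept barcodes had 1000 UMIs or more, 500 genes or more and no more than 15% mitochondrial UMIs, less the highest Scrublet scores (0.8% per 1000 cells, 3207 in all) as doublets. Clustering used 2000 variable genes without the 11 class II genes in the files, 30 principal components and Leiden resolution 1, repeated at 1.5 for myeloid and 0.5 for vascular cells (scanpy 1.11.5). A class needed at least 3 markers. All 10 members were named whatever their values, with pathway genes that were called, Irf1, Socs1, Ctss, Cd86 and Ifng whatever their values, and the genes most alike by correlation. Some genes that this rule names are not reported here.

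Sums of UMI counts by library and class went into edgeR 4.0.16 (R 4.3.3, quasi-likelihood test, TMM, filterByExpr, Benjamini-Hochberg over all genes of a class and contrast) for the 4 classes with 20 or more cells in each library. IgG, BP, BPI and CD40 shared 1 fit, UT against IgG used all 7 libraries, and a lone library was taken to vary as IgG and BP do. Shares and levels in positive cells came from cells thinned to 1000 UMIs, where 1 UMI is 10 per 10000. Free RNA was profiled per library from barcodes of fewer than 100 UMIs and scaled per class by genes of other cell types. It made 1.81% to 16.7% of the UMIs in macrophage-like, microglia-like and tumour-like cells. Exact intervals (95%) cover counting error only. Scripts were tested on simulated data. For BP against IgG, of 200 genes changed 4-fold, 0% were recovered in tumour-like, 40.0% in microglia-like, 41.0% in macrophage-like and 80.5% in T-like cells. False calls numbered 0, 9, 2 and 6 in that order. A count of 0 called genes in tumour-like or microglia-like cells therefore does not show that no gene differed. How far this recovery holds for the members was not tested. Alternatives were DESeq2 1.42.0, no filter, each library left out, a replicate block, free RNA subtracted, UT pooled with IgG, cells of at least 2000 UMIs, doublets kept, other thinning, another pseudocount and microglia-like cells without cluster M7.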

Additional observations from a re-analysis of the deposited data

How the results depend on the processing

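Of the 20 counts of genes called (5 comparisons in 4 classes, edgeR), the values below lay more than 1.5 times from the reported ones, and the cause was not tested. In macrophage-like cells, BP against IgG (10) gave 47 with DESeq2, 215 without a filter on low counts, 1 with free RNA subtracted, 0 with UT pooled with IgG, 16 in cells of at least 2000 UMIs and 3 with doublets kept, and from 0 to 152 when 1 library was left out (152 and 0 without BP replicates 1 and 2, 113 and 37 without IgG replicates 1 and 2). BPI against IgG (11) gave 24, 109, 1, 0 and 2 under the first 4 of these and with doublets kept, and 0 to 328 with a library left out. CD40 against IgG (0) gave 3 with DESeq2, 21 unfiltered and 0 to 71, BPI against BP (0) gave 33 unfiltered and 0 to 22, and UT against IgG (80) gave 284 unfiltered, 19 with free RNA subtracted, 43 with doublets kept and 63 to 749. In microglia-like cells all 5 counts were 0. For BP, BPI and UT against IgG they became 37, 23 and 96 with DESeq2 and 327, 152 and 400 unfiltered, and ranged from 0 to 835, 157 and 390 with a library left out (for BP, 835 without BP replicate 2 and 2 without BP replicate 1). BPI against BP there gave 2 with DESeq2, 65 unfiltered and 0 to 335, and CD40 against IgG gave 38 unfiltered. Without cluster M7, an alternative added after seeing the data, BP, BPI and UT against IgG gave 2, 66 and 47. In tumour-like cells DESeq2 gave 50 for BP, 8 for BPI and 805 for UT against IgG, and every count with a library left out was 0. In T-like cells BP against IgG (63) gave 3 with DESeq2, 113 unfiltered, 34 with free RNA subtracted, 0 with UT pooled, 3 with doublets kept and 8 to 258 with a library left out. BPI against IgG (47) gave 13, 76, 28, 2, 7 and 9 to 135 in that order, CD40 against IgG (9) gave 0, 18, 1, 0, 0 and 1 to 27, and BPI against BP (12) gave 0, 22, 0, 0, 0 and 0 to 222. UT against IgG (230) gave 89 with DESeq2, 22 with doublets kept and 62 to 471.

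The replicate block, for the replicate numbers of IgG and BP, gave 65 calls in macrophage-like cells (Ciita, H2-Ab1, H2-Aa and H2-Eb1 among them), 0 in microglia-like, 0 in tumour-like and 13 in T-like cells. Same-numbered libraries deviated together at r = -0.252, 0.0227, -0.714 and -0.0866 in these classes, so they share only a number. The crossed pairing, added after seeing the data, gave 36, 0, 10 and 120 calls.

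Among log2 fold changes recomputed for members, 1 of 190 with a library left out and 8 of 304 others changed sign. With UT pooled with IgG, BP against IgG in tumour-like cells gave -0.0516 for Cd74 and -0.0582 for H2-DMa, BPI against IgG in macrophage-like cells gave -0.0489 for H2-DMb1, -0.33 for H2-DMb2 and -2.39 for H2-Oa, and BP gave -0.38 for H2-Oa. With 1 library left out, Ciita in tumour-like cells ran from -0.49 to 3.87, and with free RNA subtracted Cd74 in T-like cells was -5.94 for UT against IgG. Without cluster M7, Ciita in microglia-like cells was -4.37 for UT against IgG, where UT kept 0 Ciita UMIs, and with UT pooled Lag3 in T-like cells was -0.83 for BP.

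For BP minus IgG shares, 110 of 120 values with a library left out and 117 of 120 others kept their direction. The exceptions, as ranges in percentage points with 1 library left out, were Ciita (-0.0678 to 2.73), H2-DMb1 (-0.0031 to 2.36), H2-DMb2 (-0.0077 to 0.0895), H2-Eb1 (-0.0112 to 0.373) and H2-Ob (-0.144 to 0.128) in tumour-like cells, H2-DMa (-0.655 to 40.3), H2-DMb1 (-2.13 to 23.9) and H2-Ob (-1.14 to 2.81) in microglia-like cells and H2-Ob (-2.04 to 0.736) in macrophage-like cells. H2-Ob in macrophage-like cells was 0.664 unthinned and 0.198 thinned to 2000 UMIs, and in microglia-like cells -0.0711 for at least 2 UMIs. Levels in positive cells (per 10000) changed sign for H2-DMa (-0.226 to 0.969) and H2-DMb1 (-0.655 to 0.115) in tumour-like and H2-DMb1 (-0.122 to 2.89) in microglia-like cells with a library left out. They also did for H2-DMb1 in tumour-like cells (0.156 unthinned, 0.0957 at 2000 UMIs) and H2-Ob in microglia-like cells (0.148 and 0.037).

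In the order of classes, 142 of 150 values kept their direction. With doublets kept, NK-like against T-like cells gave -0.36 for Cd74 and -0.0756 for H2-Eb1, and tumour-like against T-like gave -0.357 for H2-Aa and -0.0431 for H2-DMb2. With free RNA subtracted, T-like against tumour-like gave -0.0594 for Cd74 and -0.413 for H2-Ab1, NK-like against tumour-like -0.0803 for H2-Aa and NK-like against T-like -0.00545 for H2-Eb1. Depth limits Ciita, H2-Eb1, H2-Oa and H2-Ob most, since IgG macrophage-like cells numbered 40 and 36. A share of 0 in them does not show absence.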
